A study of Homo sapiens with 5 samples.

Results

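PDK4 or ANGPTL4 positive cells are the cells of a 72 h inhibitor library in which at least 2 UMIs (unique molecular identifiers, each standing for 1 captured RNA molecule) came from PDK4 and ANGPTL4 together. They numbered 808 of the 1868 cells kept in that library, or 43.3%, and of the 14911 cells kept in all 5 libraries. A cell was kept with 5000 or more UMIs, 1000 or more genes with a UMI and no more than 20% mitochondrial UMIs. The PDK4 and ANGPTL4 counts chose the positive cells, so the level of these 2 genes in them is a description, and both were left out of every other readout. They were set against the 597 cells of the same library (32.0%) with 0 UMIs of both genes. The remaining 463 cells (24.8%) had exactly 1 UMI and lay just outside the rule, while 309 positive cells (38.2% of them) had exactly 2 and lay just inside it.

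All cells were of MDA-MB-468, a long-used human line from a triple-negative breast cancer. The drug is named PF0517515 in the sample titles and is taken here as a blocker of ACC (acetyl-CoA carboxylase). That enzyme turns acetyl-CoA into malonyl-CoA, the building block of new fatty acids. The 5 libraries are untreated cells at 0 h, inhibitor for 6 h, inhibitor for 72 h, untreated cells at 72 h, and recovery cells after 72 h of inhibitor, with 1 library each. Dose, vehicle and how long cells recovered are not in the labels. With 1 library per group and cells that are not replicates, no test was made, and every interval is an exact 95% interval of counting error alone.

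PDK4 is a mitochondrial kinase that phosphorylates the pyruvate dehydrogenase complex and switches it off, which spares glucose carbon when fatty acids are burned. ANGPTL4 is a secreted protein that inhibits lipoprotein lipase, the enzyme that frees fatty acids from circulating triglycerides. Both are textbook targets of the PPAR family of fatty acid receptors, and both also respond to glucocorticoids and to other signals. In a cell, malonyl-CoA made by ACC blocks CPT1A, the gate for fatty acids into mitochondria.

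The 5 libraries kept 3700, 2996, 1868, 2885 and 3462 cells in the order just given, with a median of 29001, 33738.5, 42464, 29372 and 26954.5 UMIs per kept cell. In the 72 h inhibitor library, the line's epithelial genes were present in both kinds of cell: KRT18 had 2049 CPM (UMI counts of summed cells, scaled to a fixed total) in positive cells and 1999 CPM in cells of 0, and EGFR had 2484 and 2288 CPM. Of 21 markers of other cell types, 7 had no UMI in either, CD68 was the highest at 7.0 CPM, and all 21 together had 15.2 CPM in positive cells and 12.7 CPM in cells of 0. Between pairs of libraries 0 to 7 cell barcodes were shared, and 6 of the 808 positive cells had a barcode also seen in another library. Doublets were not removed.

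Over all kept cells, PDK4 (ENSG00000004799, minus strand, chr7:95583499-95596491, GRCh38) had 0.577, 0.938, 21.7, 2.28 and 3.30 CPM in the 5 libraries in that order. ANGPTL4 (ENSG00000167772, plus strand, chr19:8363289-8374373) had 1.08, 0.647, 18.6, 1.43 and 2.52 CPM in the same order. Both were thus highest at 72 h of inhibitor, and at 6 h of inhibitor neither was above its level in 72 h untreated cells. Against 0 h untreated cells, PDK4 was higher at 6 h of inhibitor (interval 0.763 to 1.14 CPM, against 0.446 to 0.734). ANGPTL4 was lower there (0.503 to 0.819 CPM, against 0.902 to 1.29). The same rule of 2 or more UMIs took 43.3% of kept cells at 72 h of inhibitor (41.0 to 45.5%), against 0.595%, 0.734%, 2.05% and 2.11% in the 0 h untreated, 6 h inhibitor, 72 h untreated and recovery libraries. When each cell was thinned at random to 5000 UMIs, 2.36% of 72 h inhibitor cells (1.72 to 3.15%) still had 2 or more. The thinned share was 0.0867% in recovery and 0 in the other 3 libraries, which allows up to 0.0996%, 0.123% and 0.128% of cells in the 0 h untreated, 6 h inhibitor and 72 h untreated libraries. A thinned cell had at least 1 UMI in 16.8% of 72 h inhibitor cells (15.1 to 18.6%), against 0.892%, 0.534%, 1.56% and 3.18% elsewhere. In the untreated libraries such shares may be background from free RNA or low expression, which cannot be told apart here.

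**Figure D1:**
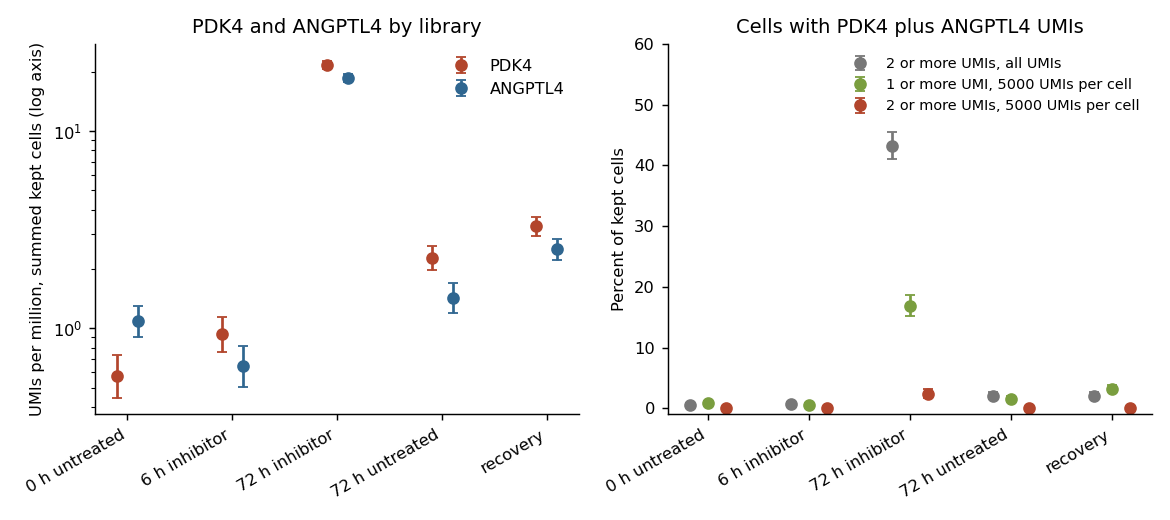
Left, PDK4 and ANGPTL4 in CPM over all kept cells of each library, on a log axis. Right, the percent of kept cells with PDK4 plus ANGPTL4 UMIs by 3 measures, with exact 95% intervals: 43.3% of 72 h inhibitor cells met the rule with all UMIs and 2.36% after thinning to 5000 UMIs.

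Whether a cell met the rule followed its depth. Positive cells had a median of 51443.5 UMIs and cells of 0 a median of 33689. Over 4 equal groups of 467 cells of the 72 h inhibitor library, from fewest to most UMIs, 19.7%, 39.6%, 46.5% and 67.2% of cells were positive. After thinning to 5000 UMIs the share with at least 1 UMI was 16.5%, 17.3%, 16.1% and 17.3% over the same 4 groups. Per UMI sequenced, shallow and deep cells thus carried about the same amount of the 2 RNAs.

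The counts did not follow 1 common rate in every cell. If all cells had carried the 2 RNAs at 1 rate per UMI, the Poisson formula gives 942.5 positive cells and 416.4 cells of 0, and 808 and 597 were observed. There were therefore more cells at 0, and fewer positive cells, than 1 common rate gives. Among positive cells the 2 genes together had a median of 3 UMIs and at most 17. A class taken from such a count is a range and not a type, and 463 cells at 1 UMI and 309 at exactly 2 lay next to the threshold.

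At similar depth, PDK4 and ANGPTL4 were not found together more often than apart in the 72 h inhibitor library. Of the positive cells, 396 (49.0%) had at least 1 UMI of each, 254 (31.4%) had PDK4 alone and 158 (19.6%) had ANGPTL4 alone. Among the 980 cells of 30000 to 60000 UMIs, an ANGPTL4 UMI was found in 197 of 500 cells with a PDK4 UMI and in 189 of 480 cells without one, 39.4% in both (35.1 to 43.8% and 35.0 to 43.9%). Across all 1868 thinned cells the correlation of the 2 counts was 0.026, as a description of sparse counts. In the other libraries the ANGPTL4 share was higher by value beside PDK4 than without it: 11.1% (9 of 81) and 3.90% (45 of 1155) at 72 h untreated, 9.68% (3 of 31) and 3.15% (49 of 1554) at 0 h untreated, 5.17% (3 of 58) and 1.89% (35 of 1849) at 6 h of inhibitor, and 10.6% (16 of 151) and 7.41% (88 of 1187) in recovery. The intervals overlap in all of these but 72 h untreated, where they barely part (lower bound of 5.21% with PDK4, upper bound of 5.18% without).

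**Figure D2:**
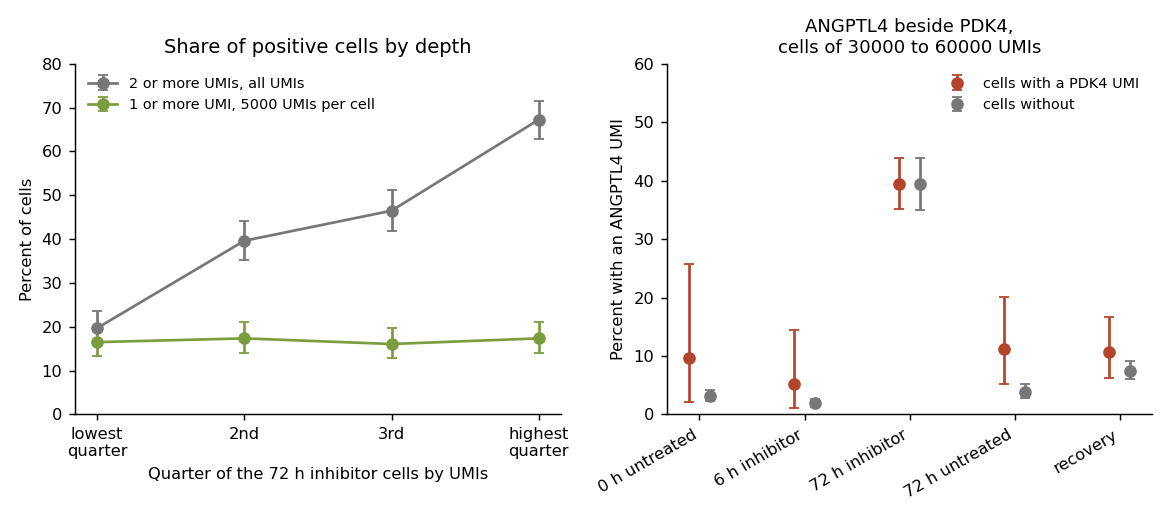
Left, percent of 72 h inhibitor cells that met the rule (grey) and percent with at least 1 UMI after thinning (green), in 4 equal groups by UMIs per cell. The first climbs to 67.2% and the second stays between 16.1% and 17.3%. Right, percent of cells with an ANGPTL4 UMI among cells with a PDK4 UMI (red) and without one (grey), for cells of 30000 to 60000 UMIs, with exact 95% intervals; at 72 h of inhibitor both are 39.4%.

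The promoter windows of the 2 genes, and of AKR1C2, the gene that led the comparison given further on, are shown because they allow a look for shared regulatory letters. Each runs from 250 bases before to 50 after the RefSeq start on GRCh38.p14, 5′ to 3′ on the gene's strand, at chr7:95596467-95596766 (minus), chr19:8363905-8364204 (plus) and chr10:5003808-5004107 (minus), in lower case with motif matches in capitals.
PDK4: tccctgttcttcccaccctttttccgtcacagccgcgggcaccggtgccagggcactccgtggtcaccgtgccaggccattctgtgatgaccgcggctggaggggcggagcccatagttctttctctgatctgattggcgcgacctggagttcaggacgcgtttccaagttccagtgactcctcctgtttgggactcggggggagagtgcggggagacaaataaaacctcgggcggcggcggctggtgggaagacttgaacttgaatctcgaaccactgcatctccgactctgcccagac
ANGPTL4: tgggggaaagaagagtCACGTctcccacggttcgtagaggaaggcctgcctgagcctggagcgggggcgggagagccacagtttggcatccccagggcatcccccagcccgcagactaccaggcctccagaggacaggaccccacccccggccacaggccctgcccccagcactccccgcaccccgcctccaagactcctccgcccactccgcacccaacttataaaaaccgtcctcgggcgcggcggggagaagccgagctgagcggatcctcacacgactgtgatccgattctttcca
AKR1C2: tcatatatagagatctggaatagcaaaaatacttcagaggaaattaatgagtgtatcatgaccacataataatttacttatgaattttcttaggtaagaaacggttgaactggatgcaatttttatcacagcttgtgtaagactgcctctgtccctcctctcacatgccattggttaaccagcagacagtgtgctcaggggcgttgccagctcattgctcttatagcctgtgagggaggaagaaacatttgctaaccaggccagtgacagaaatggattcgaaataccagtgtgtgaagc
Searched on both strands were AGGTCA (the half-site of PPAR and RXR), TGTTTAC (the FOXO core), ACGTG (the hypoxia-inducible factor core) and TGACNNNGC (the core of the antioxidant response element that NRF2 binds). The only match was ACGTG in the ANGPTL4 window, on the other strand, and ACGTG occurs in 21.4% of 35116 promoter windows of this length. The other 3 motifs occur in 13.8%, 3.42% and 13.3% of these windows and had no match in the 3 shown. The PDK4 and ANGPTL4 windows are rich in G and C (60.7% and 66.3%), the AKR1C2 window is not (41.3%), and the median over all windows is 58.7%. A match or its absence in so short a window says nothing about what binds there.

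Positive cells were then paired 1 to 1 with cells of 0 of similar depth, within 0.05 log10 units of UMIs. This gave 461 pairs with a median of 39722 UMIs in positive cells and 38452 in cells of 0. The other 347 positive cells, all of 43744 UMIs or more, had no partner. Of 6290 genes at 20 CPM or more in either group, 7 (0.111%) were at least 1.5-fold higher in positive cells and 13 (0.207%) at least 1.5-fold lower. At a lower threshold, a log2 ratio of 0.32, 98 genes (1.56%) were higher and 83 (1.32%) lower. The median log2 ratio over all genes was 0.01, a value that scaling to total UMIs keeps near 0, and 52.9% of genes were higher in positive cells. The counting interval left out no difference for 1961 of the 6290 genes. Cell cycle and mitochondrial content differed by value: 79% of paired positive cells (74.9 to 82.6%) and 69.2% of paired cells of 0 (64.8 to 73.4%) were low in both S and G2/M genes, and the median mitochondrial share was 3.45% and 3.13%.

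AKR1C2, its neighbour AKR1C1 and the esterase CES1 were among the 12 highest genes of positive cells. AKR1C2 (chr10), an aldo-keto reductase that acts on steroids and lipid aldehydes, had 719 CPM in positive cells and 444 CPM in cells of 0, 1.62-fold higher (1.58 to 1.67), and 405 CPM in 72 h untreated cells. Per thinned cell its median was 2 UMIs in positive cells and 1 in cells of 0, with 90th percentiles of 9 and 6, and 75.9% and 59.4% of cells had at least 1 UMI. Without the 5% of cells with most of its UMIs in each group the log2 ratio was 0.73, so the difference did not rest on a few cells. AKR1C1, a near-identical gene, had 149 CPM in positive cells and 106 CPM in cells of 0, 1.41-fold higher (1.33 to 1.49). Reads of the AKR1C genes can be split between these copies, so each single value is uncertain. CES1, a carboxylesterase that splits esters of lipids and drugs, had 24.1 and 13.6 CPM in positive cells and cells of 0. It was 1.77-fold higher (1.51 to 2.07), near the expression minimum. CES1, PALMD, DANT2 and CLDN10-AS1 reached that minimum of 20 CPM only in positive cells. With all cells of 0 weighted to the depth of positive cells, CES1 had a log2 ratio of 0.42 in place of 0.82. With PDK4 alone as the rule gene it also had 0.42. A CES1 UMI was found in 8.24% of thinned positive cells and 6.51% of thinned cells of 0.

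The other genes among the 12 highest, ranked by the bound of the interval nearer to no difference, were S100A8, PALMD, DANT2, TMC5, CLDN10-AS1, RARRES1, ST6GAL1, ABCC3 and EVA1C. RARRES1, a retinoid-responsive membrane protein and the most abundant of them, had 3477 CPM in positive cells and 2676 CPM in cells of 0, 1.30-fold higher (1.28 to 1.31). ABCC3, a drug and bile salt exporter, had 106 and 77.9 CPM, and ST6GAL1, a sialyltransferase, had 57.6 and 41.0 CPM. S100A8, a subunit of calprotectin, had 46.0 and 28.4 CPM, but it was detected in 31.7% of positive cells and 34.3% of cells of 0. When the 5% of cells with most of its UMIs were left out of each group, S100A8 was lower by value in positive cells (log2 ratio -0.12), and with all cells thinned and unpaired it was also lower (-0.90), so its higher sum rests on a few cells. DANT2 had 22.8 and 14.7 CPM, and a log2 ratio of -0.02 with all cells thinned and unpaired. In 72 h untreated cells S100A8 had 1791 CPM.

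**Figure D3:**
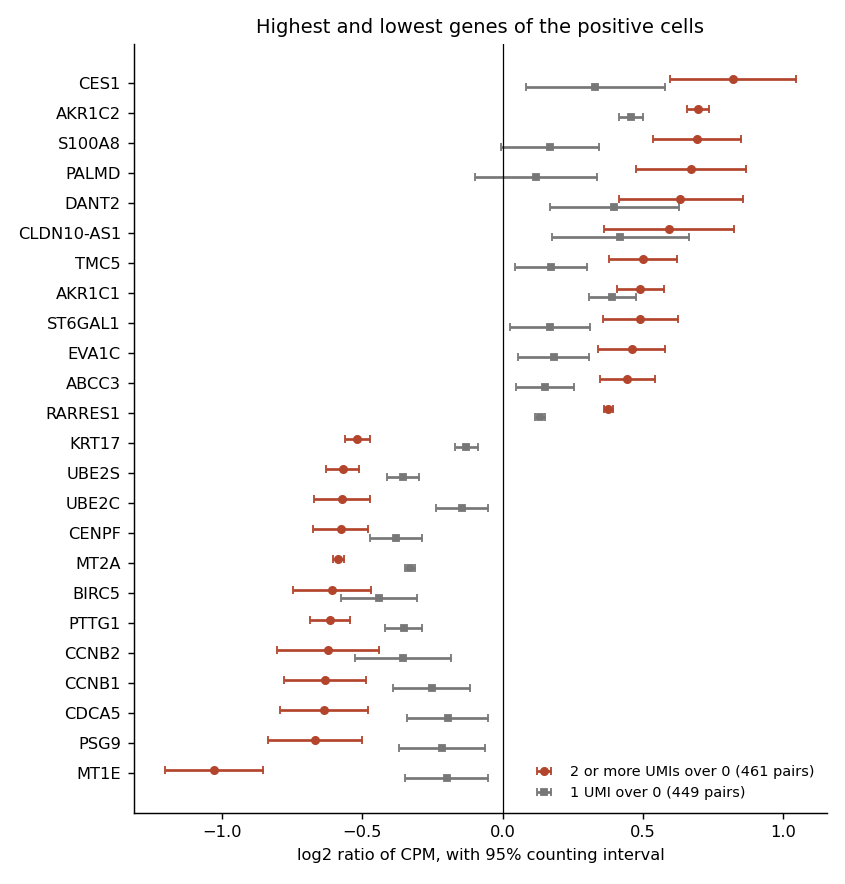
Log2 ratio of CPM over cells of 0 for the 12 highest and 12 lowest genes, for positive cells (red, 461 pairs) and for cells of exactly 1 UMI (grey, 449 pairs), with 95% counting intervals. CES1 is at the top with 0.82 and MT1E at the bottom with -1.03. Red and grey share the cells of 0 as denominator.

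The lowest genes of the paired positive cells were mostly genes of mitosis. CCNB1, the cyclin that drives entry into mitosis, had 33.4 CPM in positive cells and 51.7 CPM in cells of 0, 1.55-fold lower (1.40 to 1.72). PTTG1, the securin that holds back chromosome separation, had 141 and 216 CPM, 1.53-fold lower, and the kinetochore protein CENPF had 75.1 and 112 CPM, 1.49-fold lower. In 72 h untreated cells these 3 had 147, 525 and 307 CPM, above both kinds of inhibitor cell. Of 42 measured genes of the G2/M list, 2 were higher and 40 lower in positive cells, 24 of them past 0.32, with a median log2 ratio of -0.35 against 0.01 for all genes. Over all genes, 1.32% were lower by as much. Of 19 S phase genes 6 were higher and 13 lower, with a median of -0.06. When only cells low in both cell cycle lists were paired (321 pairs), AKR1C2 had a log2 ratio of 0.64, MT2A -0.57, PTTG1 -0.63 and CCNB1 -0.19. The G2/M median was then 0.0019, but these cells were picked by their own G2/M UMIs, so this value cannot be read as a result. With all cells of 0 weighted to the depth of positive cells in place of pairing, the G2/M median was -0.14, CCNB1 was at -0.22 and PTTG1 at -0.26, none of these past 0.32. The 347 deeper positive cells without a partner were not lower by value. Of them 69.2% were low in both cell cycle lists, as in paired cells of 0. Their mean G2/M count per thinned cell was 15.2, against 11.2 in paired positive cells and 13.7 in paired cells of 0.

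Metallothioneins and basal keratins were lower as well. MT2A, a metal-binding metallothionein, had 1762 CPM in positive cells and 2646 CPM in cells of 0, 1.5-fold lower (1.48 to 1.52), and 2739 CPM in 72 h untreated cells. MT1X had 1069 and 1429 CPM, and MT1E had 21.3 and 43.4 CPM, 2.04-fold lower (1.81 to 2.30). With all cells of 0 weighted to the depth of positive cells, the log2 ratio of MT1E was -0.26 in place of -1.03, while MT2A kept -0.60. Metallothionein genes are close copies, and reads may be split between them. KRT17, a basal keratin, had 368 CPM in positive cells and 527 CPM in cells of 0, 1.43-fold lower, and KRT5 had 75.3 and 94.4 CPM. Of 7 measured basal epithelial genes 1 was higher and 6 were lower, with a median of -0.12.

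Among genes of the oxidative stress regulator NRF2, with iron and antioxidant genes, 5 of 20 measured were higher past 0.32 and none lower. The shares over all genes were 1.56% higher and 1.32% lower by as much. By value 18 of the 20 were higher and 2 lower, with a median log2 ratio of 0.14, beside 52.9% higher over all genes. The 5 past 0.32 were AKR1C2, AKR1C1, HMOX1, AKR1B10 and AKR1C3, of which 4 are aldo-keto reductases. HMOX1, which breaks down haem, had 62.1 CPM in positive cells, 45.3 CPM in cells of 0 and 14.9 CPM in 72 h untreated cells, 1.37-fold higher than in cells of 0. GCLM, a subunit of the enzyme that starts glutathione synthesis, had 319 CPM in positive cells and 263 CPM in cells of 0. NQO1, TXNRD1 and FTH1, other members of the list, lay within a log2 ratio of 0.03 of 0.

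All 13 mitochondrially encoded genes were higher by value, with a median log2 ratio of 0.19 and none past 0.32. MT-CO1, a subunit of cytochrome oxidase, had 9699 CPM in positive cells and 8666 CPM in cells of 0. Of 30 nuclear-encoded respiratory chain genes 5 were higher and 25 lower, with a median of -0.04. With all cells thinned to 5000 UMIs and not paired, the median of the mitochondrially encoded genes was -0.06, and which of the 2 changes moved it was not tested. RNA of genes that span more of the genome was also higher by value: the median log2 ratio was -0.04 in the fifth of genes with the shortest span and 0.08 in the fifth with the longest, where 77.5% of genes were higher. The nuclear RNA NEAT1 was 1.19-fold higher in positive cells. The part of depth, RNA quality or nuclear content in these small differences was not tested.

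Measured genes of the PPAR-type, pyruvate dehydrogenase and lipoprotein lipase lists differed little between the 2 kinds of cell, with none past 0.32. Of 19 measured genes of the PPAR-type fatty acid response, 11 were higher and 8 lower, none past 0.32, with a median log2 ratio of 0.01. The receptor PPARA was 1.18-fold higher (1.09 to 1.29) in positive cells than in cells of 0, where it had 50.7 CPM, and PPARG had 55.6 and 48.2 CPM. CPT1A had 46.3 and 48.9 CPM, 1.05-fold lower (0.96 to 1.16), and 44.5 CPM in 72 h untreated cells. TXNIP, an inhibitor of thioredoxin and glucose uptake, had no UMI in either, which at 3 counts allows up to 0.156 CPM in positive cells and 0.160 CPM in cells of 0. Of 9 genes of pyruvate dehydrogenase and its kinases 4 were higher and 5 lower, with a median of -0.0017, and PDK3, another of the kinases, had 21.1 and 18.6 CPM. Of 17 genes of the lipoprotein lipase system 2 were measured, among them SEL1L, which helps lipoprotein lipase leave the endoplasmic reticulum, with 34.7 CPM in positive cells and 28.8 CPM in cells of 0. LPL itself, the enzyme that ANGPTL4 inhibits, had 0 UMIs in positive cells and 1 in cells of 0. The glucocorticoid-type list differed more. Of its 9 measured genes 5 were higher and 4 lower, with 1 higher and 3 lower past 0.32 and a median of 0.12. Over all genes 1.56% were higher and 1.32% lower by as much. Summed, this list had 3344 CPM in positive cells and 4540 CPM in cells of 0, and it includes MT2A. Among fatty acid synthesis genes, 9 of 12 were higher, 1 of them past 0.32 (SCD, log2 ratio 0.40), with a median of 0.10. They include SCD, the desaturase, with 57.2 and 43.4 CPM, FASN, the fatty acid synthase, with 42.9 and 35.0 CPM, and the inhibitor's own target ACACA, with 36.6 and 31.3 CPM.

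Stress genes that were high in the 72 h inhibitor library had similar summed levels in cells of 0 and in positive cells. Sums do not show how many cells carry a gene. GDF15 had a UMI in 15.6% of thinned positive cells and 15.4% of thinned cells of 0. GADD45G had one in 49.0% (44.4 to 53.7%) and 57.0% (52.4 to 61.6%), the furthest apart of the 5 genes below by this share. The shares were 69.4% and 66.6% for HSPA5, 61.0% and 56.6% for DDIT3, and 39.3% and 40.8% for PLIN2. GADD45G, a stress-induced growth arrest gene, had 291 CPM in positive cells, 308 CPM in cells of 0 and 8.64 CPM in 72 h untreated cells. HSPA5, the main chaperone of the endoplasmic reticulum, had 332, 341 and 129 CPM in the same order. DDIT3, the transcription factor CHOP, had 201, 225 and 59.7 CPM, GDF15, a stress cytokine, had 67.7, 70.3 and 10.1 CPM, and PLIN2, a lipid droplet coat protein, had 116, 121 and 38.6 CPM. DDIT3, the furthest apart of the 5 by summed level, was 1.12-fold lower in positive cells (1.07 to 1.17). All 5 were above their 72 h untreated level in both kinds of cell. Of 24 genes of the ATF4-CHOP response 7 were higher and 17 lower, with a median of -0.04. Of 25 genes for chaperones and degradation in the endoplasmic reticulum 12 were higher and 13 lower, with a median of -0.01. The hypoxia list (17 genes) and the FOXO list (15 genes) had medians of -0.0036 and 0.03, and the 30 ribosomal protein genes had a median of -0.01.

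**Figure D4:**
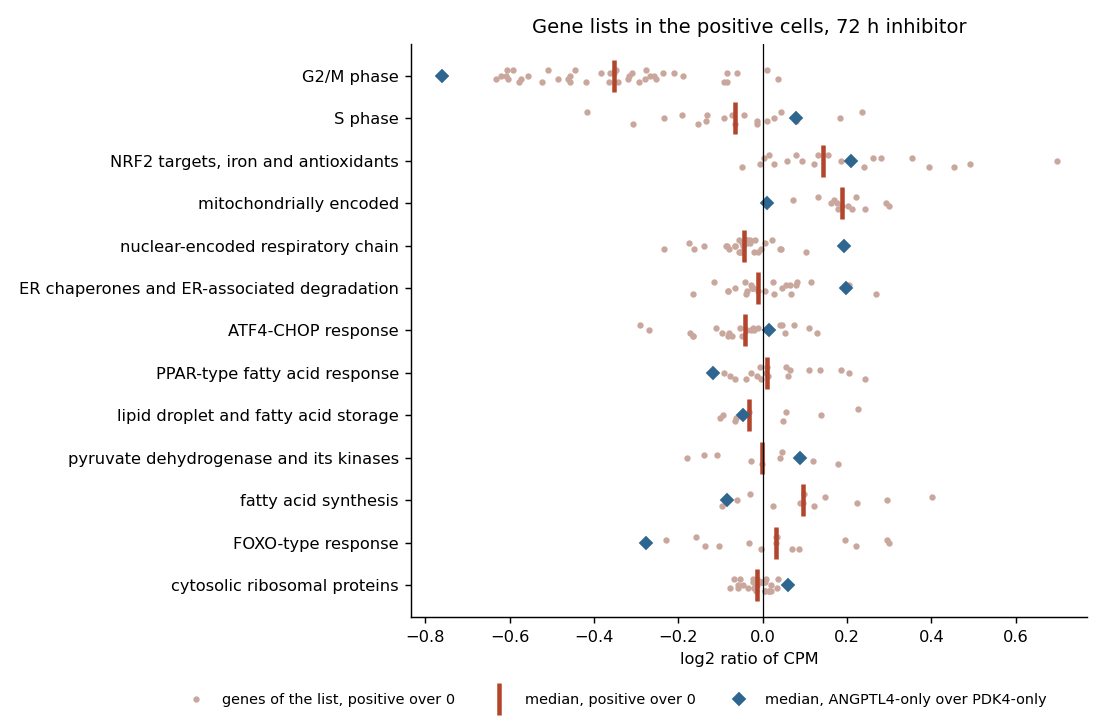
Log2 ratio of CPM for the measured genes of 13 lists, positive cells over cells of 0 (dots), with the list median (red bar) and the median for ANGPTL4-only over PDK4-only cells (blue diamond). G2/M is the only list shown whose red bar lies past -0.3, and its blue diamond lies at -0.76.

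Cells of exactly 1 UMI were nearer to cells of 0 than positive cells were, by the count of genes past 0.32. Paired with cells of 0 (449 pairs), 16 of 6236 genes (0.257%) were higher by a log2 ratio of 0.32 or more and 26 (0.417%) lower. This comparison and that of positive cells share the cells of 0, so their signs are not independent. AKR1C2 had a log2 ratio of 0.46 in cells of 1 UMI and 0.70 in positive cells, and MT2A had -0.33 and -0.59. In a window of 30000 to 60000 UMIs, AKR1C2 had 458, 612, 629, 924 and 772 CPM in cells of 0, 1, 2 to 3, 4 to 6 and 7 or more UMIs (291, 269, 286, 103 and 31 cells). MT2A had 2789, 2085, 1898, 1362 and 2094 CPM in the same order. AKR1C2 was thus higher and MT2A lower with more PDK4 and ANGPTL4 UMIs up to 6, and both turned back in the 31 cells of 7 or more. CCNB1 showed no such order, with 53.2, 39.0, 35.7, 52.0 and 60.8 CPM. The summed G2/M list had 2925, 2346, 2445, 2823 and 3229 CPM, highest in the 31 cells of 7 or more.

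The same rule in the other libraries took few cells: 22 in the 0 h untreated, 22 in the 6 h inhibitor, 59 in the 72 h untreated and 73 in the recovery library. Paired with cells of 0 there, 9, 4, 10 and 9 of the 12 highest genes were also higher and 7, 4, 7 and 6 of the 12 lowest also lower, in that order. Over all genes, 49.4%, 45.0%, 58.2% and 59.2% were higher. The G2/M median was -0.09, -0.21, 0.12 and 0.02, so the lower mitotic genes were not a constant companion of the rule, and the NRF2 median was 0.19, -0.07, 0.18 and 0.21. AKR1C2 itself was lower in the 22 positive cells of 6 h of inhibitor, with a log2 ratio of -0.63.

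PDK4 and ANGPTL4 were then taken apart, a comparison added after the data were seen. Cells with 2 or more ANGPTL4 UMIs and no PDK4 (ANGPTL4-only) were paired with cells of 2 or more PDK4 UMIs and no ANGPTL4 (PDK4-only), 157 pairs with a median of 45821 and 45849 UMIs. Of 6430 genes, 39 (0.607%) were at least 1.5-fold higher and 237 (3.69%) at least 1.5-fold lower in ANGPTL4-only cells, with a median log2 ratio of -0.07 over all genes and 39.3% of genes higher. These counts rest on fewer pairs than the comparison with cells of 0, so the 2 sets of counts are not compared. Low-cycle cells made up 79.6% of ANGPTL4-only and 68.2% of PDK4-only cells. The median mitochondrial share was 3.65% and 3.23%, and the nuclear RNAs NEAT1 and MALAT1 were 1.45-fold and 1.37-fold lower in ANGPTL4-only cells. The part of cycle, RNA quality or nuclear content in the split was not tested beyond the low-cycle cells given next.

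Mitotic genes were lower on the ANGPTL4 side. None of 47 measured G2/M genes was higher in ANGPTL4-only cells and 47 were lower, with a median log2 ratio of -0.76. TOP2A, which untangles chromosomes, had 81.1 CPM in ANGPTL4-only and 182 CPM in PDK4-only cells, and CCNB1 had 31.6 and 68.8 CPM. Summed over the list, G2/M UMIs were 0.624-fold (0.612 to 0.636) those of PDK4-only cells, and 0.941-fold (0.910 to 0.972) when only low-cycle cells, picked in part by these genes, were paired (125 pairs). Against cells of 0, the sum was 0.751-fold (0.736 to 0.766) in ANGPTL4-only, 1.17-fold (1.16 to 1.19) in PDK4-only and 0.684-fold (0.674 to 0.694) in cells with both. Among paired cells, the lower mitotic genes of positive cells were therefore found in cells with ANGPTL4 and not in those with PDK4 alone. Likewise, the G2/M median against cells of 0 was -0.84 for all cells of 2 or more ANGPTL4 UMIs and 0.03 for all cells of 2 or more PDK4 UMIs.

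The aldo-keto reductases lay on the same side. AKR1C1 had 201 CPM in ANGPTL4-only and 92.9 CPM in PDK4-only cells, AKR1C2 had 893 and 471 CPM, and AKR1C3, which also reduces steroids and prostaglandins, had 143 and 69.6 CPM. The 3 summed were 1.95-fold higher (1.89 to 2.02), and 1.73-fold higher (1.67 to 1.79) among low-cycle cells. Per thinned cell, the 3 had a median of 4 UMIs in ANGPTL4-only and 2 in PDK4-only cells, with 90th percentiles of 13 and 7.40, and 87.9% and 74.5% of cells had at least 1. Against cells of 0, AKR1C2 was 2.34-fold higher (2.25 to 2.45) in ANGPTL4-only, 1.23-fold (1.18 to 1.28) in PDK4-only and 1.66-fold (1.61 to 1.71) in cells with both. HMOX1 had 78.6 and 48.4 CPM in ANGPTL4-only and PDK4-only cells, 1.62-fold higher, but 1.10-fold (0.957 to 1.26) among low-cycle cells.

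Chaperone genes were higher by value on the ANGPTL4 side. Of 25 genes for chaperones and degradation in the endoplasmic reticulum, 23 were higher in ANGPTL4-only cells and 8 of them past 0.32, with a median of 0.20, beside 39.3% higher over all genes. HERPUD1, a stress-induced gene of that degradation, had 349 CPM in ANGPTL4-only and 195 CPM in PDK4-only cells, 1.79-fold higher, and 1.5-fold among low-cycle cells. HSPA5 had 364 and 274 CPM. Against cells of 0, HERPUD1 was 1.12-fold higher (1.06 to 1.19) in ANGPTL4-only and 1.37-fold lower (1.30 to 1.44) in PDK4-only cells. Of 16 genes of the FOXO-type response 8 were lower past 0.32 in ANGPTL4-only cells and none higher, with a median of -0.28 against -0.07 for all genes. Over the 5258 genes measured in all 5 libraries, 4.77% were higher and 16.2% lower by as much at 72 h of inhibitor. GADD45G had 232 and 368 CPM in ANGPTL4-only and PDK4-only cells. Of 30 nuclear-encoded respiratory chain genes 29 were higher by value, 5 of them past 0.32, with a median of 0.19. Of 19 PPAR-type genes 2 were higher and 1 lower past 0.32, with a median of -0.12, near that of all genes.

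The split was looked for in the other libraries, with 1 or more UMI of 1 gene and none of the other (56, 55, 97 and 198 pairs in the 0 h untreated, 6 h inhibitor, 72 h untreated and recovery libraries). Of 5258 genes measured in all 5 libraries, 6 (0.114%) were higher by a log2 ratio of 0.32 or more in ANGPTL4-only cells in all 5: AARD, AKR1C1, AKR1C2, PI3, S100A2 and TPM2. Lower by as much in all 5 were 3 (0.0571%): FAM102A, KDM6A and KIF14. These 9 were chosen by this count. Of the same 5258 genes, 6 were higher by as much in all 4 other libraries. At 72 h of inhibitor 6 of 6 were also past 0.32, and of 6 lower ones 3 were also lower by as much. To be measured, a gene also needed 20 CPM on either side at 72 h of inhibitor. There PI3 (22.0 and 8.33 CPM), AARD (39.9 and 16.4 CPM) and TPM2 (43.4 and 19.6 CPM) reached it only in ANGPTL4-only cells. The 72 h values thus had a part in the choice, and the 6 of 6 is only a description. Over all 5258 genes, 4.77% were higher and 16.2% lower by as much at 72 h of inhibitor. A single UMI can come from free RNA, which bears more on the other libraries, where the rule needed only 1.

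In the 5 libraries, in the order of the opening, AKR1C1 was higher in ANGPTL4-only cells by 2.43-fold (interval 1.82 to 3.28), 2.27-fold (1.65 to 3.14), 2.17-fold (1.99 to 2.37), 1.57-fold (1.37 to 1.80) and 1.63-fold (1.48 to 1.79). TPM2, a tropomyosin of actin filaments, was 2.76-fold, 1.85-fold, 2.22-fold, 1.45-fold and 1.42-fold higher in the same order. Its level at 72 h of inhibitor was 43.4 CPM in ANGPTL4-only cells and 19.6 CPM in PDK4-only cells. PI3, the elastase inhibitor elafin, was 1.73-fold, 1.82-fold, 2.64-fold, 1.68-fold and 1.74-fold higher, and S100A2, a calcium-binding protein of epithelia, 1.5-fold, 1.68-fold, 2.13-fold, 1.84-fold and 1.43-fold. KDM6A, a histone demethylase, had 18.4 CPM in ANGPTL4-only and 32.2 CPM in PDK4-only cells at 72 h of inhibitor, 0.571-fold (0.465 to 0.699). The G2/M sum in ANGPTL4-only cells was 0.999-fold (0.970 to 1.03) at 0 h untreated and 1.03-fold (0.996 to 1.06) at 6 h of inhibitor. Both intervals include no difference. It was lower at 72 h of inhibitor (0.624-fold), 72 h untreated (0.812-fold, 0.795 to 0.829) and in recovery (0.812-fold, 0.801 to 0.824).

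The 6 higher genes were chosen by the gap between ANGPTL4-only and PDK4-only cells. A gap between the 2 sides in the values below therefore follows from that choice and is only a description. Against cells of 0, the 6 genes summed were 1.10-fold (1.03 to 1.17), 1.04-fold (0.963 to 1.13), 2.33-fold (2.24 to 2.41), 1.27-fold (1.21 to 1.34) and 1.34-fold (1.29 to 1.40) in ANGPTL4-only cells of the 5 libraries in order. In PDK4-only cells they were 0.670-fold (0.604 to 0.741), 0.854-fold (0.776 to 0.940), 1.14-fold (1.11 to 1.18), 0.781-fold (0.747 to 0.817) and 0.891-fold (0.858 to 0.925). The sum rests mostly on AKR1C2, with 925 of 1291 CPM in ANGPTL4-only cells at 72 h of inhibitor. Single genes could differ from the sum: at 6 h of inhibitor AARD was 0.498-fold (0.393 to 0.628) in ANGPTL4-only and 0.617-fold (0.425 to 0.889) in PDK4-only cells, with overlapping intervals.

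**Figure D5:**
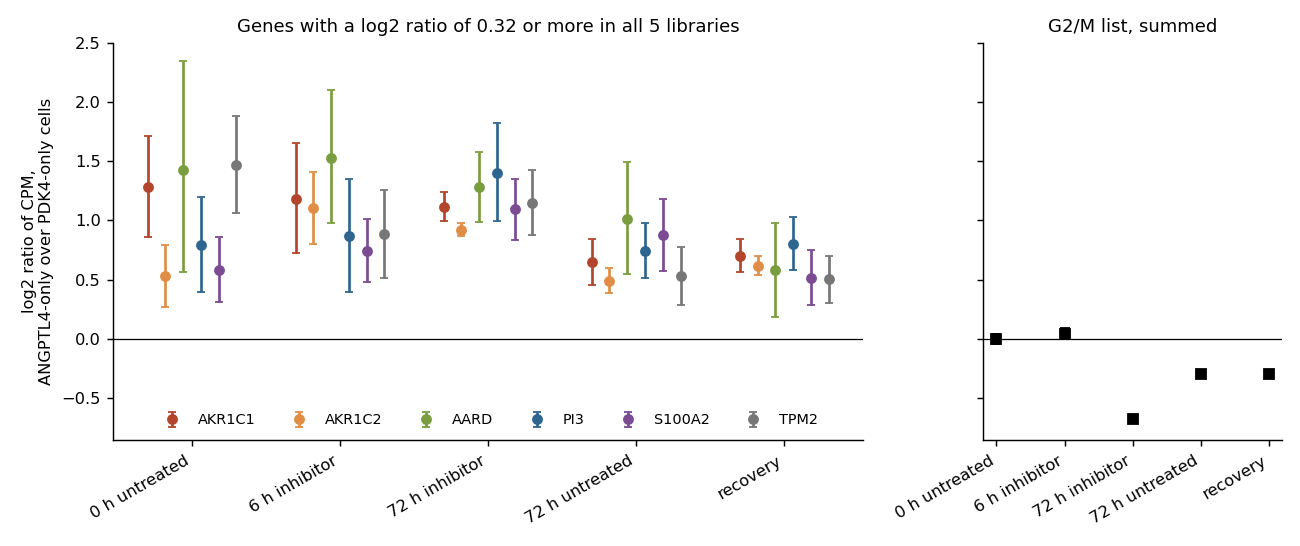
Left, log2 ratio of CPM in ANGPTL4-only over PDK4-only cells for the 6 genes with a log2 ratio of 0.32 or more in all 5 libraries, by library, with 95% counting intervals. Right, the same ratio for the summed G2/M list, which is near 0 in the first 2 libraries and lowest, at -0.68, at 72 h of inhibitor.

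The genes whose counts went most with the summed PDK4 and ANGPTL4 counts over the 1868 thinned cells, among 3105 genes at 50 CPM or more, were PELI2, MARCH6, GPCPD1, NEAT1 and LPP, with correlations of 0.124, 0.116, 0.116, 0.108 and 0.108. These are weak correlations in sparse counts of cells that share 1 library, and they are given only as a description. PELI2 was higher on the PDK4 side, with 48.6 CPM in ANGPTL4-only and 80.1 CPM in PDK4-only cells at 72 h of inhibitor.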

How the data were processed

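Single-cell RNA was counted as UMIs per gene and cell barcode in 5 libraries of 36601 features. The deposited matrices hold raw UMI counts, and the submitters' processing notes name Cell Ranger 7.1.0 and GRCh38. Which annotation release was counted is not given in the sources used here. Positions of genes come from GENCODE 29 (GRCh38), and promoter windows from RefSeq GRCh38.p14.

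Cells were kept with 5000 or more UMIs, 1000 or more genes and at most 20% mitochondrial UMIs. No doublet was removed and cells were not clustered. Positive cells were paired with cells of 0 within 0.05 log10 UMIs (12.2%), counts were summed per group and scaled by the group's total UMIs (CPM), and ratios were given for genes at 20 CPM or more in either group. Called means past 1.5-fold or past a log2 ratio of 0.32, with no test. Intervals are exact, at 95%, and cover counting error only. Low-cycle cells had at most 14 S phase and 16 G2/M UMIs after thinning to 5000 UMIs, the medians of the 0 h untreated library. Thinning drew UMIs without replacement with a fixed seed.

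The genes named are the 12 highest and 12 lowest by the interval bound nearer to no difference, among genes with a UMI in 10% or more of the cells of the higher group, up to 3 genes from each of 29 lists, 10 fixed genes and the 5 most correlated genes. Members and lists were chosen with earlier results of these data known. The ANGPTL4-only and PDK4-only comparison, and the genes named from it, were chosen after their values were seen, as were list members named beyond this rule. The arithmetic of the ratio was checked on simulated sums with counting error only, which do not cover spread between cells. Alternatives changed the pairing, thresholds, filters, scaling and expression minimum. Scripts ran in Python 3.11.15 with scipy 1.17.1 for intervals, numpy 2.4.6 and pandas 2.3.3 for tables, and matplotlib 3.10.9 for figures. Results for some genes are not reported here.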

Additional observations from a re-analysis of the deposited data

Results flagged for a closer look

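For 7 of the 24 highest and lowest genes, the difference between positive cells and cells of 0 at 72 h of inhibitor ran the opposite way in at least 1 other library, with a counting interval on the other side of no difference there. Each side is 1 library, so the difference between libraries was not tested. There were 73 pairs in recovery, 59 at 72 h untreated and 22 each in the 2 earlier libraries. AKR1C2 had a log2 ratio of 0.70 at 72 h of inhibitor and -0.63 at 6 h of inhibitor. RARRES1 had 0.38 at 72 h of inhibitor and -0.33 at 6 h. S100A8 had 0.69 at 72 h of inhibitor, against -0.96 at 0 h untreated, -0.997 at 72 h untreated and -0.55 in recovery. MT2A had -0.59 at 72 h of inhibitor, against 0.31 at 6 h and 0.0543 in recovery. PTTG1 had -0.61 at 72 h of inhibitor and 0.42 at 6 h. CDCA5, a cohesin regulator of mitosis, had -0.64 at 72 h of inhibitor and 0.91 at 72 h untreated. KRT17 had -0.52 at 72 h of inhibitor, against 0.83 at 0 h untreated, 0.37 at 6 h and 0.26 in recovery.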

How the results depend on the processing

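The 7 genes at least 1.5-fold higher in positive cells became 26 with all cells thinned and unpaired, 4 with 3 or more UMIs as the threshold, 17 with ANGPTL4 alone as the rule gene, 3 against cells of 0 or 1 UMI, 4 in low-cycle cells, 11 with totals free of mitochondrial and ribosomal protein genes, 2 at a 50 CPM minimum, 3613 with no minimum, and 4 without the 5% of cells with most UMIs of each gene, an alternative chosen after seeing the data. The 13 lower genes became 5 with weighted cells of 0, 104 thinned, 4 with PDK4 alone, 78 with ANGPTL4 alone, 4 against cells of 0 or 1 UMI, 8 at 10% mitochondrial UMIs or less, 5 in low-cycle cells, 3 with equal cell weight, 4 at 50 CPM and 3873 with no minimum. The share of 2.36% with 2 or more UMIs became 43.3% without thinning, 6.92% at 10000 UMIs, 16.8% at 1 or more UMIs and 0.375% at 3 or more. S100A8 turned to a log2 ratio of -0.90 thinned and -0.12 without its top cells, DANT2 to -0.0215 thinned, and with PDK4 alone PTTG1 turned to 0.00568 and CCNB1 to 0.0503. The cause was not tested. Of 34 named genes past a log2 ratio of 0.32, 32 to 34 kept their direction under each alternative, and AKR1C2 ranged from 1.34-fold to 2.12-fold. A changed expression minimum leaves each ratio as it is, so those alternatives could not turn a direction. Sizes moved more: of 101 named genes, 60 left their main interval when thinned and 2 reversed. With ANGPTL4 alone 53 left it, and with weighted cells of 0, 42. Cells were paired by depth, but libraries could not be paired because each group is 1 library, and no result comes from a test. Depth limits the rule: a cell of few UMIs can hold 0 of both RNAs by counting alone.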
